A study of Mus musculus with 12 samples.

Results

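The genes described here encode proteins of neutrophil granules and the S100 alarmins of the neutrophil cytosol. They were taken by gene symbol from the array annotation as Mpo, Elane, Prtn3 and Ctsg (primary granules), Ltf, Ngp, Camp and Lcn2 (secondary granules) and S100a8 and S100a9. These 10 genes, of 19057 named on the array, had 14 of the 45281 probes on the array, 7 for primary granule genes, 5 for secondary granule genes and 2 for the S100 genes. Of the 14 probes, 11 passed the filter on dim signals, which kept 16606 probes in all.

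The tumours came from adult female C57BL/6J mice that carried syngeneic pancreatic tumour cells, placed with matrigel into the pancreas by surgery. Once tumours were established, the chow held either a CSF1 receptor inhibitor (CSF1Ri, 5 tumours), which blocks the growth factor signal that macrophages depend on, or vehicle (Vehicle, 4 tumours), for 8 days. The mice were perfused with heparinised buffer and the tumours were digested with collagenase before total RNA was taken, so each value belongs to a whole tumour with its tumour cells, stroma, leukocytes and remaining pancreas. Which inhibitor was used, and how much, the labels do not say. CSF1Ri 1, Vehicle 1 and Vehicle 3 were hybridised a second time, which made 12 arrays. In such bulk RNA, fewer cells of a type and less RNA per cell cannot be told apart.

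Neutrophils are short-lived phagocytes that store antimicrobial proteins in granules made in sequence during their growth in the bone marrow. Primary granule genes are transcribed at the promyelocyte stage, secondary granule genes at the myelocyte and metamyelocyte stage, and transcripts of both classes are low in mature circulating neutrophils, whereas S100a8 and S100a9 stay abundant in mature neutrophils and are also made by monocytes. Lcn2 and Ltf are made by epithelial cells as well as by neutrophils. PU.1, C/EBP factors and RUNX1 are known regulators of granule genes in myeloid precursors.

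The promoters of these genes are shown first. Most of the genes stood in nearly the same order over the tumours, and a link of that order to the promoters was not tested. The 250 bases before the annotated start of each gene were taken from RefSeq (GRCm38.p6), which held all 10 genes, and searched on both strands for AGGAAGT, a core of the type bound by PU.1, for TTGCNNAA, a C/EBP-type site, and for TGTGGT, a RUNX core. These letters were chosen with the sequences in view. AGGAAGT occurred in 5 of the 10 windows, those of Mpo, Elane, Prtn3, Ctsg and S100a8, and in 7.70% of 32536 promoter windows of the same length. TTGCNNAA occurred in 4 of the 10, those of Ltf, Ngp, Lcn2 and S100a9, against 9.57% of all windows. TGTGGT occurred in the windows of Ctsg and S100a9, and in 13.96% of all windows. No 2 of these matches overlapped in the member windows. The windows of the 4 primary granule genes and of Ltf and Ngp are printed 5′ to 3′ along the gene, with AGGAAGT and TTGCNNAA in capitals as they stand in the printed strand. They lie at chr11:87793534-87793783 (Mpo, plus strand), chr10:79886062-79886311 (Elane, plus), chr10:79879417-79879666 (Prtn3, plus), chr14:56102575-56102824 (Ctsg, minus), chr9:111019042-111019291 (Ltf, plus) and chr9:110419558-110419807 (Ngp, plus). Each is the stretch just upstream of the first transcribed base. The marked letters are a description of these windows and not evidence that a factor bound there.
Mpo: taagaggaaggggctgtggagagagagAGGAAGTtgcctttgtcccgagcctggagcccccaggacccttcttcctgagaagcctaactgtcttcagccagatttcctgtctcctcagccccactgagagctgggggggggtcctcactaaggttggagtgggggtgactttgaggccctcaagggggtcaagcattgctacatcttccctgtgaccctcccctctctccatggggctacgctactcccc
Elane: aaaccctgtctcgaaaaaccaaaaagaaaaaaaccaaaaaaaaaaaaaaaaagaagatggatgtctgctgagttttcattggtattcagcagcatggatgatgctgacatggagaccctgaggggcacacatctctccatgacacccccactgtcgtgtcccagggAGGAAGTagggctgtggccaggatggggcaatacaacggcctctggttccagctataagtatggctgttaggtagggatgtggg
Prtn3: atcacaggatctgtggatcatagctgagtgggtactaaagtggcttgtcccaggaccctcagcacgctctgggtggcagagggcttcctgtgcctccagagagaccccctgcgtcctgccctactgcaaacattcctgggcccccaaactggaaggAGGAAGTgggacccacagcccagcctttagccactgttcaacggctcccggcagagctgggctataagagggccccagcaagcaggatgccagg
Ctsg: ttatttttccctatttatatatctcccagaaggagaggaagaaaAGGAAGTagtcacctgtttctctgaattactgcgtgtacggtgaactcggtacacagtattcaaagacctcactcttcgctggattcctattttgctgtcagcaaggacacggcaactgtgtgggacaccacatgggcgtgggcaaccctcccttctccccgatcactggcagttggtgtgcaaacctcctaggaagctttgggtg
Ltf: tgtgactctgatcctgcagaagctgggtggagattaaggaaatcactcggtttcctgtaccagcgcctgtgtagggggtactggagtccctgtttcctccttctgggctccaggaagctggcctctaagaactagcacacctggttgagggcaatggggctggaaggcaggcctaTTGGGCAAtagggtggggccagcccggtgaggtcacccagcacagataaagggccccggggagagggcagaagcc
Ngp: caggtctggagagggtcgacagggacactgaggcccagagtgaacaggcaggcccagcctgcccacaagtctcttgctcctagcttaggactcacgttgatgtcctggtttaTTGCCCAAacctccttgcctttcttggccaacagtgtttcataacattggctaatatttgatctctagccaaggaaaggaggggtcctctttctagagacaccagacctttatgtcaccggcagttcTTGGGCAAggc

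All 4 primary granule genes carried AGGAAGT in this window, from base -223 to base -217 before the start in Mpo and from -84 to -78 in Elane. In Ngp, TTGCNNAA occurred on both strands, at -138 to -131 and, reversed, at -11 to -4. Lcn2, whose levels went apart from the other members, also held TTGCNNAA (-216 to -209). Along the chromosomes, Prtn3 and Elane are neighbouring genes, as are S100a8 and S100a9. Camp, Ngp and Ltf lie on chromosome 9 with other genes between them, with windows from base 109849457 (Camp) to base 111019291 (Ltf).

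Values are normalised log2 intensities, 1 per tumour. A probe counted as detected on an array when its detection p-value was under 0.05, and as passing the filter when it was detected in at least 4 of the 9 tumours. Between 16219 and 17847 probes were detected per array. Of the 11 member probes that passed, 4 (Ltf, Lcn2, S100a8 and S100a9) were detected in all tumours, and 5 (both Mpo probes, Elane, Ctsg and Ngp) were detected in fewer than 4 CSF1Ri tumours and passed only with the help of the Vehicle tumours. For such probes the filter itself favours a lower CSF1Ri value. The tissue markers Krt8, Krt18 and Krt19 were detected on all 12 arrays, Epcam on 0 of 6 CSF1Ri and 0 of 6 Vehicle arrays, and the acinar list had a mean level of 5.83 to 13.21 in CSF1Ri tumours and 10.82 to 12.89 in Vehicle tumours.

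In CSF1Ri tumours 10 of the 11 kept probes had a lower mean than in Vehicle tumours (46.6% of all kept probes did), and none of the 11 differed past the threshold. The exception was Lcn2. Log2 fold changes (CSF1Ri minus Vehicle) ran from -2.78 for 1 of the Mpo probes to 0.29 for Lcn2, with a median of -1.93, where the median over all kept probes was 0.01. At a limma adjusted p under 0.05, 0 of 11 member probes were called, and the smallest adjusted p was 0.329, for Mpo. Over all kept probes, 24 were called lower (0.145%) and 0 higher (0%). At an unadjusted limma p under 0.05, 9 of the 11 probes were lower, against 3.40% of all kept probes, and 0 were higher, against 4.18%. A log2 fold change under -1 was seen in 9 of 11, against 1.01% of all kept probes. The two-sided exact permutation p over the 126 splits of the tumours, which cannot go below 0.00794, was under 0.05 for 8 of 11 probes, against 7.15% of all kept probes. These counts describe the list. The members vary together, and 5 of the 11 probes passed the filter through the Vehicle side. They also vary more between tumours of a group than most probes. Except for Lcn2, their pooled within-group SDs (0.76 to 1.42) lay above the upper 5 percent point over all kept probes (0.57).

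**Figure D1:**
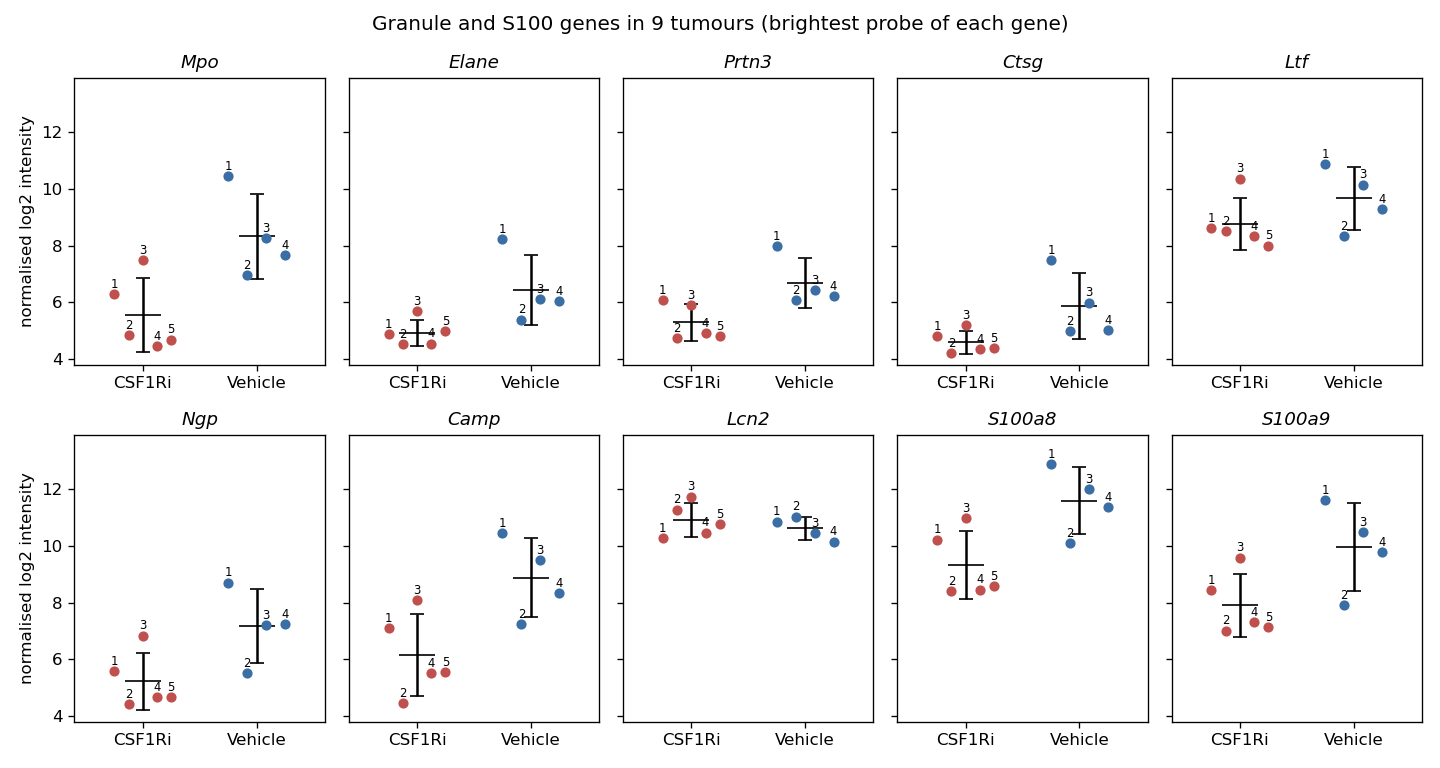
Normalised log2 intensity of the brightest probe of each gene in each tumour, CSF1Ri left and Vehicle right; numbers are the tumour's replicate number, the horizontal bar is the group mean and the whiskers are ± SD (n = 5 and n = 4). Vehicle 1 is the highest tumour for every gene but Lcn2, and CSF1Ri 3 reaches into the Vehicle range for most genes.

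Among the primary granule genes, Mpo had the largest difference. Mpo encodes myeloperoxidase, the haem enzyme that makes hypochlorous acid from hydrogen peroxide. Its first probe (ILMN_1249030) had log2 intensities of 6.30, 4.83, 7.49, 4.46 and 4.68 in CSF1Ri tumours 1 to 5, against 10.45, 6.96, 8.26 and 7.65 in Vehicle tumours 1 to 4. CSF1Ri 3 was the only CSF1Ri tumour above the lowest Vehicle tumour, and Vehicle 1 stood far above the rest. The means were 5.55 ± 1.30 in CSF1Ri and 8.33 ± 1.51 in Vehicle tumours (SD, n = 5 and 4), 6.87-fold lower (log2 fold change -2.78, SE 0.77, limma adjusted p = 0.329). Of the 16606 kept probes, 6 had a lower log2 fold change and 87 had a larger pooled within-group SD. This Mpo probe was detected in 2 of 5 CSF1Ri and 4 of 4 Vehicle tumours. The filter thus favoured a low CSF1Ri value for it, and its rank is only a description.

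The second kept Mpo probe (ILMN_2600421) gave 5.62, 4.47, 6.55, 4.37 and 4.39 in CSF1Ri tumours, against 9.51, 6.02, 7.55 and 6.77 in Vehicle tumours. The tumours stood in the same order as for the first probe, and the log2 fold change was -2.38 (SE 0.68, limma adjusted p = 0.358). Both kept probes were detected on 3 of 6 CSF1Ri and 6 of 6 Vehicle arrays. The other Mpo probes, 2 in number, were too dim for the filter and were not tested. One of them (ILMN_2925094) was detected on 0 of 6 CSF1Ri and 5 of 6 Vehicle arrays. Its mean was 1.68-fold lower in CSF1Ri tumours, with the CSF1Ri side set at the lowest detected signal of each array and the Vehicle side as measured. This is not a strict lower bound, since Vehicle 2 (4.59) was not detected. Vehicle 1 was highest, at 7.13. The other (ILMN_2719256) was detected on 1 of 6 CSF1Ri and 3 of 6 Vehicle arrays, with measured means of 4.61 ± 0.19 and 4.97 ± 0.55, and its groups overlapped.

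The serine proteases of the same granules had smaller differences. Elane encodes neutrophil elastase, Prtn3 encodes proteinase 3 and Ctsg encodes cathepsin G. Elane was at 4.87, 4.52, 5.67, 4.54 and 4.97 in CSF1Ri tumours, against 8.22, 5.38, 6.10 and 6.05 in Vehicle tumours. The groups met only through CSF1Ri 3, which lay above Vehicle 2. Its log2 fold change was -1.52 (SE 0.49, limma adjusted p = 0.438), a 2.88-fold lower mean. It was detected on 3 of 6 CSF1Ri and 6 of 6 Vehicle arrays.

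Prtn3 was at 6.07, 4.73, 5.90, 4.92 and 4.80 in CSF1Ri tumours, against 7.98, 6.09, 6.42 and 6.21 in Vehicle tumours. It was the only kept member whose groups did not overlap, and CSF1Ri 1 came within 0.02 of Vehicle 2 on the log2 scale. Groups did not overlap, with CSF1Ri lower, for 1.32% of all kept probes, and with CSF1Ri higher for 1.50%. The log2 fold change of Prtn3 was -1.39 (SE 0.42, limma adjusted p = 0.409), with an exact permutation p of 0.0159. This separation was absent in the authors' processed values, with the second hybridisations left out and within the dimmer arrays.

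Ctsg was at 4.81, 4.21, 5.20, 4.36 and 4.37 in CSF1Ri tumours, against 7.48, 4.99, 5.99 and 5.02 in Vehicle tumours. Vehicle 2 and Vehicle 4 lay below CSF1Ri 3 and close to CSF1Ri 1. The log2 fold change was -1.28 (SE 0.46, limma adjusted p = 0.513). Both Mpo probes, Elane and Ctsg were each detected in 2 of the 5 CSF1Ri tumours and in all 4 Vehicle tumours. The offset added to all signals makes the fold changes of such dim probes smaller than the change in signal itself.

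The secondary granule genes were less alike. Camp encodes the cathelicidin precursor of the antimicrobial peptide CRAMP. It was at 7.10, 4.45, 8.09, 5.51 and 5.55 in CSF1Ri tumours, against 10.44, 7.24, 9.49 and 8.35 in Vehicle tumours. CSF1Ri 3 lay above Vehicle 2 and the other CSF1Ri tumours lay below all Vehicle tumours. Means were 6.14 ± 1.44 in CSF1Ri and 8.88 ± 1.39 in Vehicle tumours, 6.68-fold lower (log2 fold change -2.74, SE 0.78, limma adjusted p = 0.361). Camp was detected on 5 of 6 CSF1Ri and 6 of 6 Vehicle arrays, and 7 kept probes had a lower log2 fold change.

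Ngp encodes neutrophilic granule protein, a cathelicidin relative. It was at 5.59, 4.41, 6.83, 4.66 and 4.65 in CSF1Ri tumours, against 8.70, 5.50, 7.20 and 7.23 in Vehicle tumours. CSF1Ri 1 and CSF1Ri 3 lay above Vehicle 2. The log2 fold change was -1.93 (SE 0.63, limma adjusted p = 0.457).

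Ltf encodes lactotransferrin, an iron-binding protein of secondary granules and of exocrine secretions. Its kept probe (ILMN_2754364) was at 8.61, 8.52, 10.36, 8.34 and 8.00 in CSF1Ri tumours, against 10.88, 8.33, 10.15 and 9.30 in Vehicle tumours. Vehicle 2 lay below 4 of the 5 CSF1Ri tumours. The difference was within the spread of the tumours, with means of 8.77 ± 0.92 in CSF1Ri and 9.66 ± 1.10 in Vehicle tumours (log2 fold change -0.90, SE 0.55, limma adjusted p = 0.821, exact permutation p = 0.214). Ltf was detected in all 5 CSF1Ri tumours, whereas Ngp was detected in 2 of them. The other Ltf probe (ILMN_2889020) was detected on 0 of 6 CSF1Ri and 2 of 6 Vehicle arrays and was not tested.

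Lcn2 encodes lipocalin 2, which withholds iron from bacteria by binding their siderophores and is made by injured epithelia and neutrophils. It was at 10.27, 11.28, 11.74, 10.47 and 10.77 in CSF1Ri tumours, against 10.86, 11.04, 10.44 and 10.15 in Vehicle tumours. The groups overlapped, and CSF1Ri 3 was the highest tumour and Vehicle 4 the lowest. The log2 fold change was 0.29 (SE 0.30, limma adjusted p = 0.940). Its pooled within-group SD was 0.53, the smallest among the kept members, which otherwise ran from 0.76 for Prtn3 to 1.42 for Camp, and the median over all kept probes was 0.23.

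Both S100 alarmins had lower means in CSF1Ri tumours, and neither passed the test. S100a8 and S100a9 encode the subunits of calprotectin, a calcium- and zinc-binding complex that signals through Tlr4 when released. S100a8 was at 10.22, 8.39, 10.97, 8.46 and 8.58 in CSF1Ri tumours, against 12.89, 10.09, 12.01 and 11.36 in Vehicle tumours. CSF1Ri 1 and CSF1Ri 3 lay above Vehicle 2 and below the other Vehicle tumours. The means of 9.32 ± 1.19 in CSF1Ri and 11.59 ± 1.18 in Vehicle tumours differed 4.81-fold (log2 fold change -2.27, SE 0.65, limma adjusted p = 0.371). It was detected on every array.

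S100a9 was at 8.44, 7.01, 9.59, 7.32 and 7.13 in CSF1Ri tumours, against 11.61, 7.92, 10.50 and 9.77 in Vehicle tumours. Vehicle 2 again lay among the CSF1Ri tumours. The log2 fold change was -2.05 (SE 0.72, limma adjusted p = 0.501, exact permutation p = 0.0556).

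**Figure D2:**
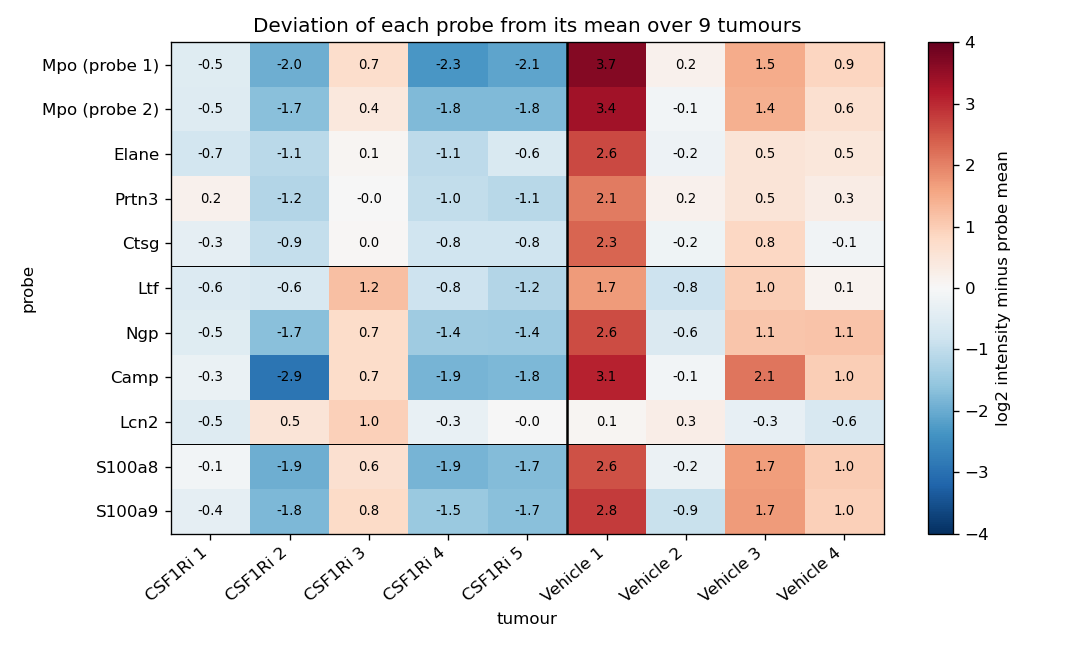
Log2 intensity of each kept probe minus its own mean over the 9 tumours, with tumours in columns (CSF1Ri left, Vehicle right) and probes in rows by class (primary granule, secondary granule, S100); Mpo probe 1 is ILMN_1249030 and probe 2 is ILMN_2600421. Rows other than Lcn2 share a pattern, with Vehicle 1 highest and CSF1Ri 2, 4 and 5 low.

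The order of the tumours was shared by most members. Vehicle 1 was highest for 10 of 11 probes and Vehicle 2 was the lowest Vehicle tumour for 10 of 11. CSF1Ri 3 was the highest CSF1Ri tumour for 10 of 11. CSF1Ri tumours 2, 4 and 5, named after their values were seen, lay below every Vehicle tumour for the members other than Ltf and Lcn2. The share of all kept probes with this order was not counted. Of the 11 probes, 5 passed the filter through the Vehicle side, which favours low CSF1Ri values. Leaving out single tumours moved the differences without ending their direction. Without Vehicle 1 the log2 fold change was -2.07 for Mpo, -0.93 for Elane, -0.74 for Ctsg, -0.49 for Ltf and -1.83 for S100a8, and the median over the members was -1.42. Without Vehicle 2 the CSF1Ri values lay below all Vehicle values for 8 of 11 probes, against 1.97% of all kept probes, and without CSF1Ri 3 for 6 of 11, against 2.49%. The tumours left out here were named after their values were seen, and they are the ones through which the groups overlapped. The limma adjusted p of the members stayed above 0.05 in each of these fits.

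**Figure D3:**
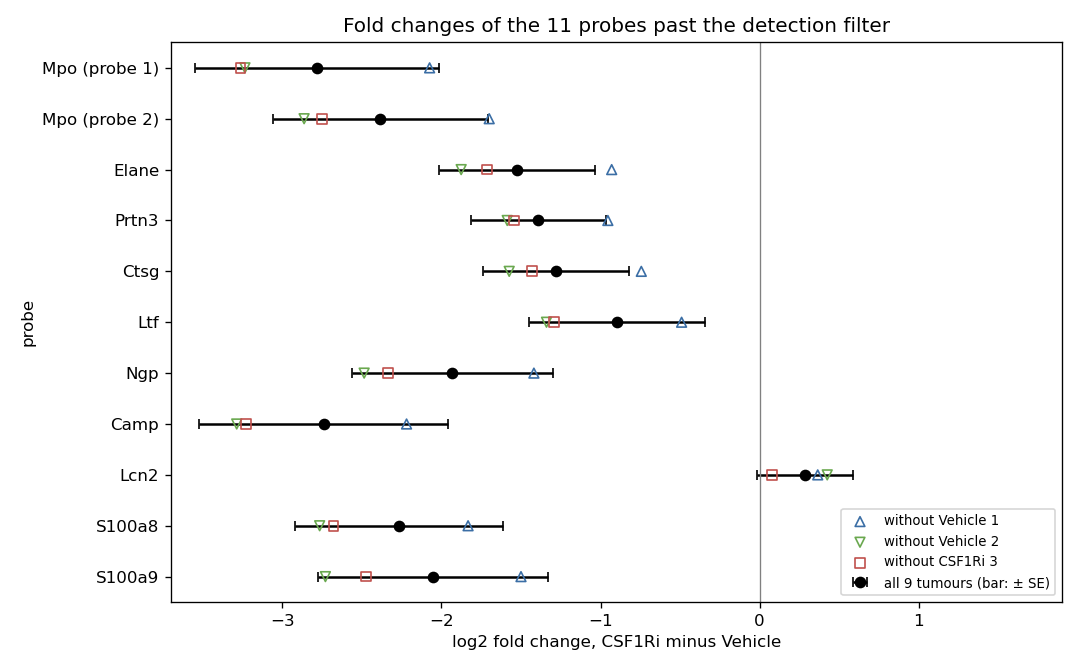
Log2 fold change (CSF1Ri minus Vehicle) of the 11 kept probes with all 9 tumours (filled circles, bars ± SE) and without Vehicle 1, Vehicle 2 or CSF1Ri 3 (open marks). Without Vehicle 1 each value except that of Lcn2 moves toward 0, without Vehicle 2 or CSF1Ri 3 each of the others moves away from 0, and Lcn2 lies between 0.08 and 0.42.

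Pairs of members were compared over the 9 tumours (6 pairs, two-sided exact permutation p adjusted over the 6). S100a8 and S100a9 had a Pearson r of 0.98 (p = 8.27e-06, adjusted p = 4.96e-05) and a Spearman rho of 0.98 (p = 4.96e-05, adjusted p = 0.000298). Mpo and Elane had r = 0.94 (exact permutation p = 9.92e-05, adjusted p = 0.000298) and rho = 0.92 (exact permutation p = 0.00131, adjusted p = 0.00394). Across classes, Mpo and Ltf had r = 0.88 (exact permutation p = 0.00133, adjusted p = 0.00199) and rho = 0.82 (exact permutation p = 0.0108, adjusted p = 0.0162). Within the secondary class, Ltf had r = 0.91 with Ngp (exact permutation p = 0.00104, adjusted p = 0.00199; rho = 0.82, exact permutation p = 0.0108, adjusted p = 0.0162) and r = 0.86 with Camp (exact permutation p = 0.00353, adjusted p = 0.00424; rho = 0.75, exact permutation p = 0.0255, adjusted p = 0.0306). Lcn2 and S100a8 had r = -0.12 (exact permutation p = 0.763, adjusted p = 0.763) and rho = -0.28 (exact permutation p = 0.463, adjusted p = 0.463).

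Without the 2 tumours farthest from the median of the first gene, r was 0.97 for S100a8 and S100a9, 0.91 for Mpo and Elane, 0.79 for Mpo and Ltf, 0.87 for Ltf and Ngp, 0.82 for Ltf and Camp, and -0.21 for Lcn2 and S100a8. As deviations from the group means, which removes the difference between CSF1Ri and Vehicle, the same r values, in that order, were 0.98, 0.88, 0.91, 0.93, 0.87 and 0.15. All values of a tumour share its arrays and its normalization. The permutations moved tumours across both groups, so the p-values of the pairs also reflect the difference between CSF1Ri and Vehicle. No p was computed for the deviations. Mpo, Elane and Ngp were each detected in 2 of 5 CSF1Ri tumours, and their other CSF1Ri values include undetected ones near the background.

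**Figure D4:**
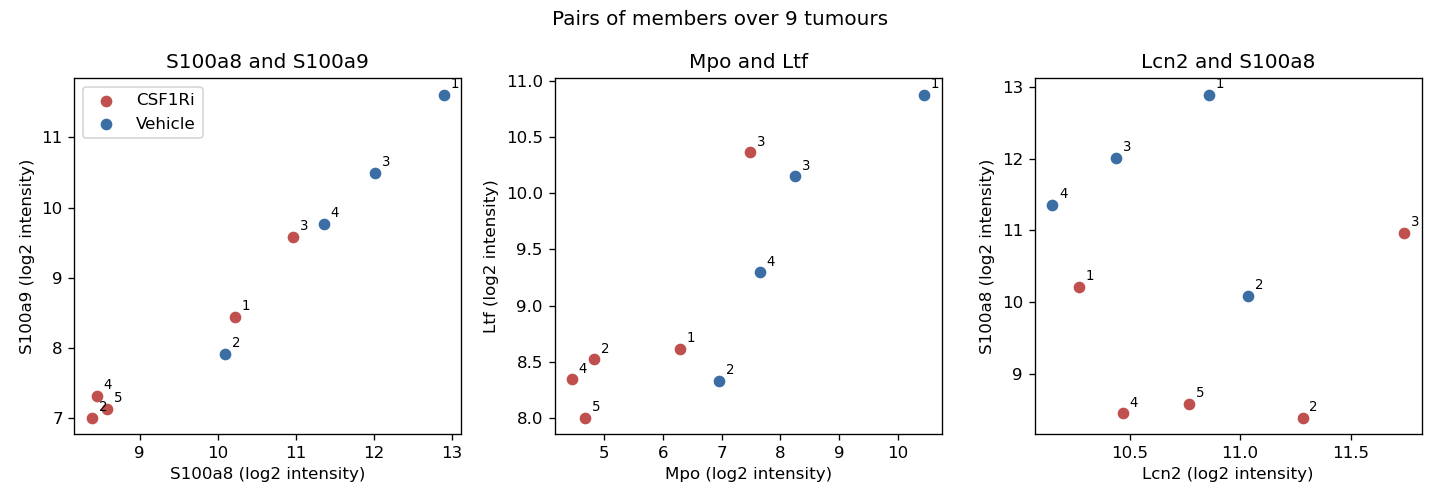
Normalised log2 intensities of S100a8 and S100a9, of Mpo and Ltf, and of Lcn2 and S100a8, 1 point per tumour, CSF1Ri in red and Vehicle in blue, numbered by replicate. S100a8 and S100a9 lie along a line (r = 0.98), whereas Lcn2 and S100a8 do not (r = -0.12).

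For the brightest gene of each class, the 5 other genes most like it over the 9 tumours were found by Pearson r among the brightest probes of 9788 named genes. The r values are descriptions of 9 tumours, chosen as the highest among all these genes. For Mpo these were Il1r2 (r = 0.94), Cd177 (0.92), Trem3 (0.92), Ifitm6 (0.91) and N4bp2l1 (0.91). For S100a8 they were Il1r2 (0.92), Mtmr4 (0.91), Csf3r (0.91), Cd177 (0.90) and Retnlg (0.89). Il1r2 encodes the decoy interleukin-1 receptor, Cd177 a neutrophil surface glycoprotein and Csf3r the receptor for granulocyte colony-stimulating factor. For Lcn2 they were Hdac11 (0.97), Pmm2 (0.96), Tmc4 (0.95), Sar1a (0.95) and Sctr, the secretin receptor of ductal cells (0.94). The list for Lcn2 shared no gene with the lists for Mpo and S100a8.

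Among other genes of neutrophil granules, Mmp9 passed the test. Of 19 listed, 10 were tested, 1 fell (Mmp9) and 0 rose at a limma adjusted p under 0.05, and the median log2 fold change was -0.40, against 0.01 over all 9788 genes. Mmp9, a gelatinase of neutrophil tertiary granules that macrophages also make, was at 7.47 ± 0.40 in CSF1Ri and 10.73 ± 0.47 in Vehicle tumours (a log2 difference of -3.27 with an SE of 0.25, limma adjusted p = 0.000669). Its groups did not overlap, and its SDs were below those of Mpo and Camp. Vehicle 1 was the lowest Vehicle tumour for Mmp9 and the highest for Mpo and Camp. The call was lost with the replicate number as a block and within the dimmer arrays (limma adjusted p up to 0.117 over 21 alternatives), with log2 fold changes of -3.23 and -2.91 there. Cd177 had a log2 fold change of -1.15 and Ctsc, the dipeptidyl peptidase that activates the granule proteases, of -0.38, with limma adjusted p of 0.572 and 0.671. In the list of mature neutrophil genes, 11 of 18 were tested, 2 fell (Mmp9 and the receptor gene Trem1, log2 fold change -1.18, limma adjusted p = 0.0123) and 0 rose. The call for Trem1 was lost in 5 of 20 alternatives, among them without CSF1Ri 4 and without Vehicle 2 (limma adjusted p up to 0.379), with log2 fold changes of -1.19 to -1.11 in those 5. Trem1 was detected in 3 of 5 CSF1Ri and 4 of 4 Vehicle tumours. The median of the list of mature neutrophil genes was -0.88, and 7 of the 11 tested genes had a negative log2 fold change. Those of Hdc (0.39), Mxd1 (0.34), Slc7a11 (0.13) and Ccrl2 (0.02) were positive, none past the threshold. The mean level of the list was 5.93 to 6.74 in CSF1Ri tumours and 6.62 to 7.16 in Vehicle tumours. The chemokine receptor gene Cxcr2 was detected by 1 of its probes on 0 CSF1Ri arrays and on 1 Vehicle array, and Mmp8 on 0 arrays of either group. Ly6g and Fpr1 were not analysed here.

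Of 12 listed regulators of granulocyte growth, 9 were tested, 1 fell (Spi1) and 0 rose. Spi1, which encodes PU.1, was at 4.71 ± 0.22 in CSF1Ri and 5.63 ± 0.21 in Vehicle tumours (log2 fold change -0.92, limma adjusted p = 0.0498), just inside the threshold. It was detected in 2 of 5 CSF1Ri and 4 of 4 Vehicle tumours, so it passed the filter only with the Vehicle side. PU.1 is also needed by macrophages. The call was lost in 18 of 20 alternatives, including each that left out a tumour, while the log2 fold change stayed between -0.99 and -0.42. Gfi1, a repressor needed for granulocyte differentiation, was at -0.37 and Csf3r at -0.38 on the log2 fold change scale (limma adjusted p = 0.558 and 0.634). The median of the list was -0.09.

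Inhibitors and receptors of the granule proteins gave no calls. Of 8 serine protease and cathepsin inhibitors, 7 were tested, 0 fell and 0 rose, with a median log2 fold change of -0.11. The first by p were Serpina3n (-0.18), the cystatin gene Cstb (-0.11) and Serpinb1a, an inhibitor of neutrophil elastase (0.22). Among 8 receptors and adaptors linked to the alarmins, 6 were tested, 0 fell and 0 rose, with Cxcr4 at -0.69, Emb at -0.50 and Cd69 at -0.59 on the log2 fold change scale. Among 11 other S100 genes, 9 were tested, 0 fell and 0 rose, and the median log2 fold change was -0.18. S100a13 was first by p, with a log2 fold change of -0.40 (limma adjusted p = 0.502), followed by S100a1 (-0.18) and S100a16 (-0.24). Among 9 genes of lipocalin uptake and iron handling, 6 were tested, 0 fell and 0 rose, with Hmox1 at -0.43, Trf at 0.27 and Tfrc at -0.32.

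Markers of other cells moved with some of these values, and their part in the results was not tested. The erythroid list (8 of 13 tested, 0 called) had a mean level of 7.94 to 10.19 in CSF1Ri tumours and 8.27 to 11.10 in Vehicle tumours. Its highest CSF1Ri tumour was CSF1Ri 3 and its highest Vehicle tumour was Vehicle 1, as for most members, but its second Vehicle tumour was Vehicle 4 (9.19) and not Vehicle 3 (8.32). The monocyte list (6 of 9 tested, 2 fell) lay at 8.05 to 8.52 in CSF1Ri and 8.97 to 9.30 in Vehicle tumours, and the macrophage list (10 of 13 tested, 3 fell) at 7.17 to 8.01 and 8.48 to 8.92. In the macrophage list Vehicle 1 was the lowest Vehicle tumour and Vehicle 2 the highest, the reverse of the granule genes. The leukocyte list (4 of 5 tested, 0 called, with Ptprc detected on 0 arrays of either group) lay at 8.50 to 9.65 in CSF1Ri and 9.05 to 9.72 in Vehicle tumours. The epithelial list (6 of 7 tested, 0 called) lay at 11.30 to 11.95 in CSF1Ri and 11.09 to 12.01 in Vehicle tumours. The mast cell and basophil list (6 of 8 tested, 0 called) lay at 5.43 to 6.12 in CSF1Ri and 5.83 to 7.53 in Vehicle tumours, highest in Vehicle 4.

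Array brightness split the arrays into 2 sets, dimmer and brighter, with 3 CSF1Ri and 3 Vehicle arrays each. In the order in which the series lists its samples, all dimmer arrays come before all brighter ones. What this order marks is not given in the sample titles. CSF1Ri 2, CSF1Ri 3 and Vehicle 2 are only in the dimmer set, and CSF1Ri 4, CSF1Ri 5 and Vehicle 4 only in the brighter set. CSF1Ri 1, Vehicle 1 and Vehicle 3 are in both sets, with the first hybridisation in the dimmer set and the second in the brighter set. The sets are therefore not separate comparisons. The median log2 fold change of the kept members was -1.70 in the dimmer set and -2.73 in the brighter set. Mpo was at -2.32 and -3.67, Camp at -2.59 and -3.29, S100a8 at -1.78 and -3.03 and Ltf at -0.60 and -1.81 in the dimmer and brighter sets. With 3 tumours a group, all CSF1Ri values lay below all Vehicle values for 0 of 11 probes in the dimmer set, against 5.31% of all kept probes, and for 10 of 11 in the brighter set, against 6.55%. The dimmer set holds CSF1Ri 3 and Vehicle 2, the tumours through which the groups overlapped, and the brighter set holds neither. Lcn2 was at 0.35 in the dimmer set and at -0.0043 in the brighter one.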

How the data were processed

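RNA of 9 tumours was hybridised to 12 Illumina BeadArrays. Groups and replicate numbers came from the sample titles, and 3 second hybridisations were averaged with the first. The members and gene lists were chosen with earlier results of these data known. The authors deposited, per the file headers, an intensity and a detection p-value for 45281 probes per array. The intensity was background-subtracted and unscaled, as its values show, and a further deposited table holds intensity times 1 factor per array (0.672 to 1.49) on a linear scale, uncentred, with column medians from 3.61 to 5.35. What software scanned, background-corrected and scaled the arrays is not stated in the labels or files.

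Intensities were normalised with neqc in limma 3.58.1 (R 4.3.3; offset 16, quantile, log2). Each of 16606 kept probes was tested with limma (lmFit, eBayes, no covariate), with Benjamini-Hochberg adjustment over all kept probes and a threshold of 0.05. Lists used the brightest kept probe per gene, after older symbols were updated. Named from the lists were the members past the threshold and otherwise the 3 with the smallest p, and the 5 genes most correlated with the brightest member of each class. Whether each sample is a separate mouse is not stated, so p-values measure the spread between these samples, and their number limits the precision. Exact permutation tests of the groups were run in R over all splits of the tumours. Those of the pairs were run in numpy 2.4.6 over all orders of the tumours, with ranks from scipy 1.17.1. The fitting code was tested on simulated data. Alternatives covered background, scaling, filters, repeats, single tumours, brightness and the variance model.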

Additional observations from a re-analysis of the deposited data

Results flagged for a closer look

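Ltf (ILMN_2754364) in CSF1Ri 3 was at a log2 intensity of 10.36, apart from the other 4 CSF1Ri tumours, of which the next was at 8.61. The gap was 0.74 of the range of the 5 tumours, above the critical value of Dixon's test for 5 samples. It was the only such value among 22 groups checked (11 probes in 2 groups), where chance gives about 1 in 20.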

How the results depend on the processing

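The log2 fold changes of the 10 kept probes with lower CSF1Ri means were negative under each alternative run, and 0 member probes passed a limma adjusted p of 0.05 under any of the 21. That of Lcn2 was 0.29 over all 9 tumours and -0.0043 within the brighter arrays. Over all probes, the 24 called lower became 15 with median centring, 7 with no filter, 10 among probes detected on all 12 arrays, 1 in the dimmer set of arrays, 8 in the brighter set, and 46 with the brightness set as a block. Leaving out single tumours gave 6 (CSF1Ri 4) to 33 (CSF1Ri 3), with 15 without CSF1Ri 1 and 9 without CSF1Ri 5, Vehicle 2 or Vehicle 3. Probes called higher, 0 in all 9 tumours, were 1 with an offset of 50 and another background model, 2 with trended and robust variance, 6 with the brightness set as a block, and 0 to 1 (without Vehicle 4) on leaving out single tumours. The replicate number as a block (tumours 1 to 4) left 1 probe called lower. Over all kept probes, the deviations of tumours of the same number correlated at -0.06 to 0.19. For each kept member probe, the SE was smaller with the block than in the fit without CSF1Ri 5, which uses the same tumours. It was 0.30 against 0.85 for Camp and 0.29 against 0.33 for Lcn2. Whether the number marks a pairing is not settled by these values. With the offset of 50 and the other background model, which changed together, the member median was -1.20. The cause of these changes was not tested. Dim signal limits the primary granule genes and Ngp most.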

Other observations

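Several listed genes of early granulocytes were too dim for the filter. Fcnb, a ficolin of bone marrow granulocytes, was detected by its 2 probes on 0 of 6 CSF1Ri arrays each and on 3 and 4 of 6 Vehicle arrays. Ms4a3, a gene of granulocyte and monocyte precursors, was detected by 1 of 2 probes on 0 CSF1Ri arrays and on 2 Vehicle arrays. Myb, a transcription factor of early precursors, was detected on 0 CSF1Ri and 0 Vehicle arrays by any of its probes. Other listed granule genes did not share this side. Olfm4 was detected by 1 of 2 probes on 2 CSF1Ri and 0 Vehicle arrays, and Padi4 on 1 CSF1Ri and 0 Vehicle arrays. Bpi and Itgb2l were detected on 0 arrays of either group. None of the genes in this paragraph was tested, and their detection was known when they were picked.

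The repeat hybridisations show the technical spread of the members. The median absolute difference between the arrays of a tumour over the 11 kept probes was 0.22 in CSF1Ri 1, 0.11 in Vehicle 1 and 0.12 in Vehicle 3 on the log2 scale. The largest difference was 0.43, for Elane in CSF1Ri 1. These lie below the pooled SD between tumours of each kept probe.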
